A study of Oryzias latipes with 6 samples.

Results

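A set of 70 genes, of 20459 gene IDs counted in whole medaka embryos, was strongly reduced in every pool of embryos knocked out for SEDL and was at an even level in the wild type pools. Members were chosen on CPM, the counts of a gene per 1000000 counts in its library. The mean wild type level had to be 2 CPM or more, the highest knockout library had to reach at most 25% of the lowest wild type library, and the highest wild type library could exceed the lowest by at most 1.5 times. The knockout loss and the wild type evenness were therefore the criteria of choice. Both are given below as descriptions, with no test. The other results below, such as which library was lowest, come from the same libraries and are descriptions as well.

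The 6 libraries came from pools of untreated Cab-strain medaka (Oryzias latipes) embryos at stage 40 of the Iwamatsu series, of undetermined sex. There were 3 wild type pools and 3 pools that the labels call KO for SEDL. The labels call the pools biological replicates. No source used here gives the type of SEDL allele, its zygosity, the number of embryos per pool or the clutches behind the pools. Biological and technical parts of the spread between pools cannot be told apart.

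SEDL, now named TRAPPC2, is the gene of sedlin. Sedlin is a subunit of the TRAPP complexes, which tether vesicles and act on Rab GTPases on the way between the endoplasmic reticulum and the Golgi. In human patients, loss of sedlin causes spondyloepiphyseal dysplasia tarda, a growth disorder of cartilage and bone, and sedlin has been linked to the export of procollagen from the endoplasmic reticulum. The count table names genes by Ensembl ID alone. Of its 20459 IDs, 0 matched a symbol in the RefSeq gene table used for names, so the roles of the 70 genes, the level of the targeted gene and the tissue markers of the embryo are not described here. Only 2 member IDs are printed, that of the most abundant member and that of the member with the lowest residual level. The other members are described by their rank in wild type abundance.

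Library totals ran from 18499107 to 23393540 counts and overlapped between the groups. Wild type replicate 1 stood apart in the lost genes, and in a comparison over genes it also differed most from the other wild type libraries. Without wild type replicate 1, 248 genes met the criteria in place of 70, and these included the 70. Without any other single library 77 to 104 genes met them. In bulk RNA, fewer cells of a type and less RNA per cell cannot be told apart.

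The members were a small part of the genes at their level. Of 16572 genes with a wild type mean of 2 CPM or more, 168 had all knockout libraries at or under 25% of the lowest wild type library, a share of 1.01%. Of those 168, 70 were even across the wild type pools and 98 were not. Evenness by the same limit held for 76.1% of all genes at that level and for 41.7% of the lost ones. The reversed criteria, with knockout and wild type exchanged, were met by 26 genes that were even across the knockout pools. Another 18 genes had all knockout libraries at 4 times the highest wild type library or more but were uneven across those pools. Together these were 0.274% of 16046 genes with a knockout mean of 2 CPM or more. The lost and the raised share both depend on scaling to library totals. With it the median log2 ratio, knockout over wild type, was -0.16 over all genes tested. The reversed criteria were not tried with another scaling.

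**Figure D1:**
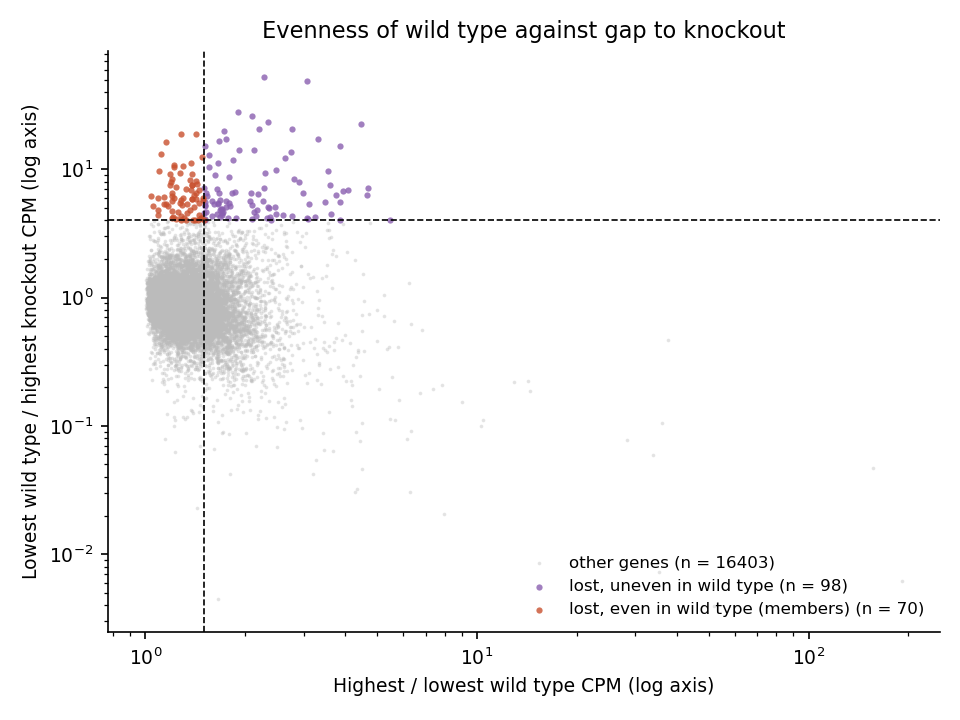
Each point is 1 of 16571 genes with a wild type mean of 2 CPM or more. The horizontal log axis gives the highest over the lowest wild type CPM, the vertical log axis the lowest wild type over the highest knockout CPM, and dashed lines mark the limits of 1.5 and 4. The 70 members fill the upper left field, the 98 uneven lost genes the upper right, and most genes lie near a ratio of 1 on the vertical axis.

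Among the genes just inside a limit, 2 members had wild type means of 2.05 and 2.07 CPM. The nearest genes that missed only this limit were at 1.302 and 1.107 CPM. The members closest to the loss limit had their highest knockout library at 24.99% and 24.95% of the lowest wild type library, and the nearest genes outside were at 25.0001% and 25.02%. The highest wild type library exceeded the lowest by 1.49999 and 1.49 times in the members closest to the evenness limit, and by 1.503 and 1.504 times in the nearest genes outside.

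Wild type levels of the members spanned scarce to very abundant transcripts. The means ran from 2.05 to 3031 CPM with a median of 22.3 CPM, beside a median of 20.3 CPM over all genes of 2 CPM or more. A level of 100 CPM or more was held by 12 members, 10 to 100 CPM by 39 and under 10 CPM by 19. These were 0.82%, 0.368% and 0.422% of all genes in the same classes. The lost genes with uneven wild type pools had a median of 16.0 CPM.

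Together the 70 genes took 0.660%, 0.826% and 0.776% of all counts in wild type replicates 1, 2 and 3. In knockout replicates 1, 2 and 3 they took 0.0753%, 0.0858% and 0.0841%. The mean share was 0.754% ± 0.0851 for wild type and 0.0817% ± 0.00561 for knockout pools (SD, n = 3 each). The most abundant member alone held 40.2% ± 1.69 of the member counts of wild type libraries and 33.1% ± 0.470 of those of knockout libraries (SD, n = 3 each). Without it the share of the others was 0.451% ± 0.0522 for wild type and 0.0547% ± 0.00348 for knockout pools (SD, n = 3 each). Since each member was chosen for its loss, the fall of this share was fixed by the criteria.

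**Figure D2:**
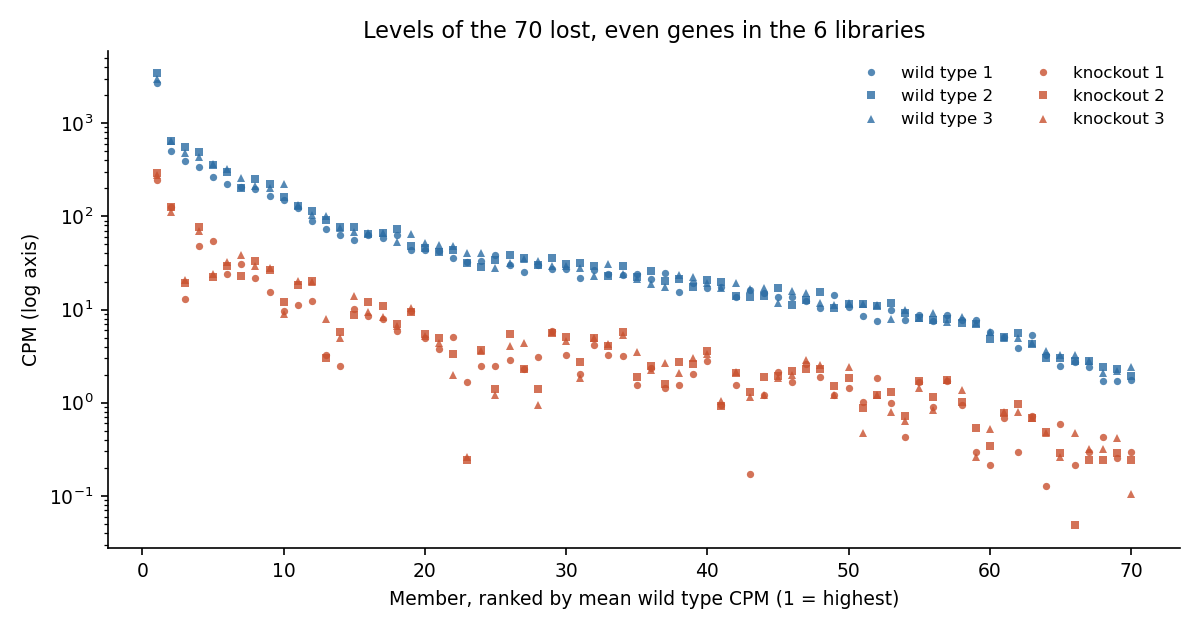
Level of each of the 70 members in the 6 libraries, in CPM on a log axis, with members ranked by mean wild type level. Wild type libraries (blue) and knockout libraries (red) are marked by replicate number, and the gap between them is open for every member along the whole range from 3031 to 2.05 CPM.

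The most abundant member, ENSORLG00000010599, stood at 2695, 3428 and 2972 CPM in wild type replicates 1, 2 and 3. Its knockout levels were 246.8, 288.5 and 276.9 CPM. The lowest wild type library was 9.34 times the highest knockout library, and the knockout pools were close to each other. The wild type mean was 3031 ± 370 CPM and the knockout mean 271 ± 21.5 CPM (SD, n = 3 each), which left 8.93%. Its log2 fold change, knockout minus wild type, was -3.33 with a standard error of 0.13 in a fit of all genes with TMM-scaled libraries. That fit did not pair the libraries by replicate number. With the number as a block the log2 fold change was also -3.33.

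The member with the lowest residual level, ENSORLG00000006207, stood at 32.7, 31.2 and 40.0 CPM in wild type. In knockout replicates 1, 2 and 3 it stood at 1.67, 0.242 and 0.264 CPM, from 39, 5 and 5 counts. Knockout replicate 1 was thus the highest of the knockout pools and the other two were near 0. The knockout mean of 0.724 ± 0.817 CPM was 2.09% of the wild type mean of 34.6 ± 4.70 CPM (SD, n = 3 each). The fitted log2 fold change was -5.34 (standard error 0.52), and it was -6.92 without knockout replicate 1. The size of this loss therefore rests on which knockout pools enter.

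Abundant members kept different residual levels. The second most abundant member was at 509, 642 and 651 CPM in wild type and at 126, 127 and 110 CPM in the knockout pools. It kept 20.2% of its wild type level, the second highest residual among the 70. The third was at 393, 557 and 482 CPM in wild type and at 13.04, 19.3 and 20.9 CPM in the knockout. With 3.72% left, it had the second lowest residual of all members, and its lowest wild type library was 18.8 times its highest knockout library.

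The fourth member by abundance kept 15.2% of its wild type mean of 424 ± 77.3 CPM (SD, n = 3). The fifth was at 264, 357 and 361 CPM in wild type and at 54.9, 22.5 and 24.2 CPM in the knockout, where replicate 1 was more than the other two pools together. The tenth was at 150, 162 and 222 CPM in wild type and at 9.66, 12.1 and 8.96 CPM in the knockout, a residual of 5.75%. Over the 12 members of 100 CPM or more the residual ran from 3.72% to 20.2%, with a median of 12.2%.

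The residual level over all 70 members ran from 2.09% to 21.6% of wild type, with a median of 11.9%. It was at or under 5% in 2 members, at or under 10% in 22, at or under 15% in 53 and over 20% in 2. As a fold, the loss ran from 4.64 to 47.8 with a median of 8.42. The criteria limit the highest residual, and with it the smallest fold, but not the lowest residual. Median residuals were 12.2%, 10.9% and 13.2% in members of 100 CPM or more, 10 to 100 CPM and under 10 CPM, so abundance classes differed little beside the spread within each. In the 98 uneven lost genes the residual ran from 0.606% to 17.5%, with a median of 7.76%. These 2 sets were divided on wild type values that also enter the residual, so the difference was not tested.

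The member with the highest residual level, the 57th by abundance, was at 8.79, 7.99 and 7.30 CPM in wild type and at 1.71, 1.74 and 1.74 CPM in the knockout. Its knockout libraries were the closest to each other among the members. The third lowest residual, 5.001%, belonged to the 59th member, at 7.76, 6.97 and 7.19 CPM in wild type and at 0.299, 0.533 and 0.264 CPM in the knockout. A scarce member could thus lie at either end of the residual range.

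None of the 70 genes was without counts in a knockout library. Over the 3 knockout libraries the summed counts ran from 14 to 16980, with a median of 140.5. In 57 members every knockout library had 10 counts or more, and 3 members had 3 counts or fewer in some knockout library. The knockout mean was under 1 CPM in 18 members and 10 CPM or more in 13. The residual level was therefore measurable in each of these genes when the knockout libraries were summed, and least precisely in the scarce ones.

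**Figure D3:**
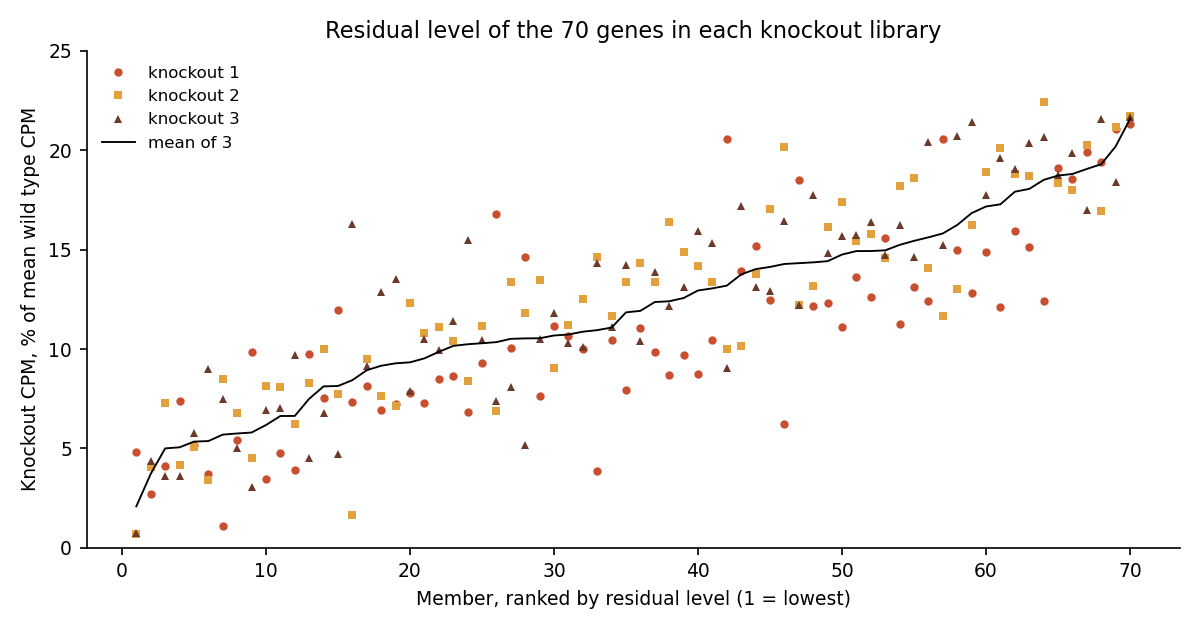
Residual level of each of the 70 members in knockout replicates 1, 2 and 3, as percent of the member's mean wild type CPM, with members ranked by the mean of the 3 (black line). The mean runs from 2.09% to 21.6%, and knockout replicate 1 (red circles) is the lowest of the 3 in 40 members.

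In the fit of all 18011 genes tested, each of the 70 members was among the genes called lower, as were 18.7% of all genes tested (edgeR, quasi-likelihood, p adjusted by Benjamini-Hochberg, limit 0.05). In CPM by library total, all knockout libraries lay below all wild type libraries in 34.3% of the genes tested and, by the criteria of choice, in every member. The 18.7% came from TMM-scaled libraries, so the 2 shares differ in scaling as well as in measure. The criteria used this contrast, so nothing is read from these counts. The log2 fold changes of the members ran from -5.34 to -2.06 with a median of -2.92, beside a median of -0.01 over all genes tested. Their standard errors had a median of 0.21, against 0.17 over all genes. This fit did not pair the libraries by replicate number. With the number as a block, 4473 genes were called lower in place of 3366. With libraries scaled to their totals alone, the median log2 ratio was -3.07 in the members and -0.16 over all genes tested. The scaling thus moved members and other genes alike. With TMM-scaled CPM the criteria gave 59 genes, 54 of them among the 70.

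The criteria did not name which wild type pool was lowest, but the level of the lowest pool entered both the loss and the evenness limit. Wild type replicate 1 was the lowest of its group in 42 of the 70 members, or 60%, against 34.6% of all genes tested. Replicates 2 and 3 were lowest in 16 and 12 members, or 22.9% and 17.1%, against 35.9% and 29.5% of all genes tested. As a percent of each member's wild type mean, replicate 1 had a median of 92.5%, replicate 2 of 103% and replicate 3 of 105%. In the 98 uneven lost genes replicate 1 was lowest in 82, or 83.7%, and its median was 69.0% of the wild type mean. The members thus leaned the same way as the uneven genes, within the limit that chose them.

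The median level over the members, which need not be that of the same gene in each library, hid this lean. Across the 70 genes the median CPM was 22.7, 22.5 and 22.7 in wild type replicates 1, 2 and 3. In knockout replicates 1, 2 and 3 it was 2.22, 2.30 and 2.48 CPM. Wild type medians and knockout medians did not overlap, as the criteria required of each member.

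**Figure D4:**
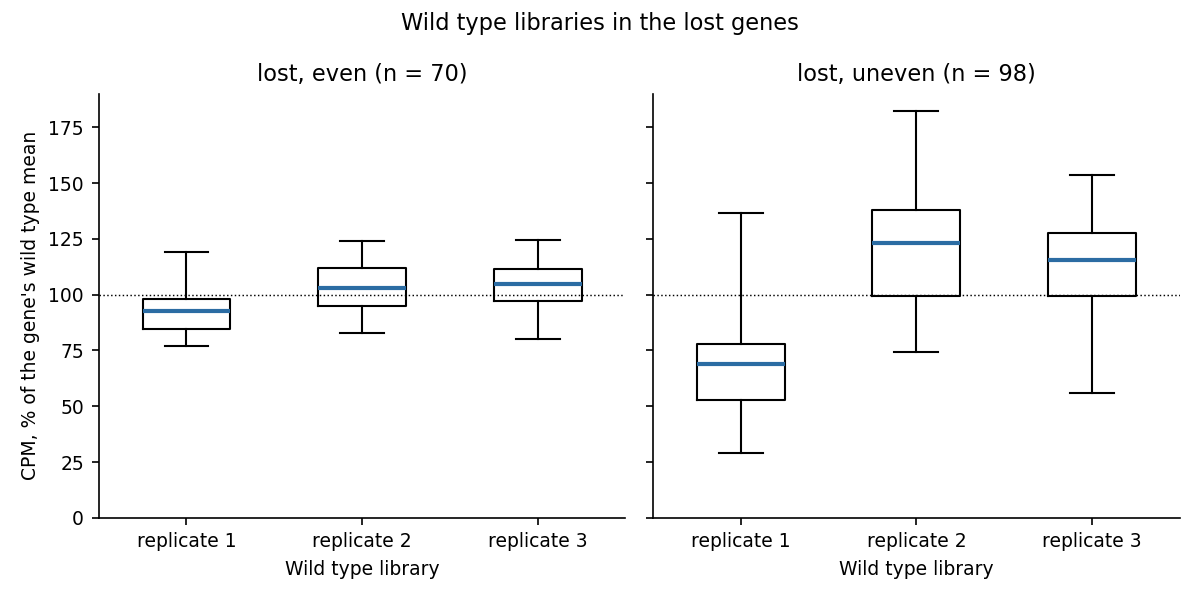
Level of the lost genes in each wild type library, as percent of the gene's wild type mean, for the 70 even and the 98 uneven genes. Boxes give the quartiles with the median in blue, and whiskers reach the lowest and the highest gene. In the even genes the medians are 92.5%, 103% and 105% for replicates 1, 2 and 3, and in the uneven genes replicate 1 is at 69.0%.

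The spread between knockout pools was not part of the criteria, apart from the ceiling on the highest pool. The ratio of the highest to the lowest knockout library ran from 1.02 to 9.80, with a median of 1.57. It was at most 1.5 in 32 members, over 2 in 17 and over 3 in 6. Differences between the 3 knockout libraries exceeded counting noise (the 95% point of a chi-square distribution with 2 degrees of freedom) in 32 members, or 45.7%, against 56% of all genes tested. Counting noise is larger in scarce genes, so these shares depend on level. The criteria made the members scarce in the knockout, with a median of 2.27 CPM, so nothing is read from the lower share. Between the wild type libraries, differences exceeded counting noise in 48 members, or 68.6%, against 68.8% of all genes tested. They did so in all 98 uneven lost genes. The evenness limit bounds the wild type spread of members, so their share depends on the criteria and nothing is read from it.

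Knockout replicate 1 was the lowest of its group in 40 members, or 57.1%, against 32.9% of all genes tested. It was the highest in 13 members, or 18.6%, against 28% of all genes tested. Of the 17 members with a ratio over 2, knockout replicate 1 was the highest in 8 and the lowest in 6, and the spread exceeded counting noise in 11. The 28th member by abundance was at 3.08, 1.41 and 0.949 CPM in knockout replicates 1, 2 and 3, after 30.4, 30.1 and 33.1 CPM in wild type. The 43rd went the other way, at 0.171, 1.31 and 1.16 CPM in the knockout after 16.1, 13.7 and 16.6 CPM in wild type. Genes that were even in wild type thus differed in which knockout pool kept more of their RNA.

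Replicate numbers were shared between the groups, and the residual level was also taken within each number. The knockout level as a percent of the wild type library of the same number had a median over members of 11.3% for number 1, 12.3% for number 2 and 12.6% for number 3. The highest values for the 3 numbers were 24.9%, 21.8% and 23.8%, where the criteria allow no value over 25%. The same number was lowest in both groups in 31 members, or 44.3%, against 54.8% of all genes tested, and in 23 of those 31 the number was 1. Taken separately, number 1 was lowest in 60% of members in wild type and in 57.1% in the knockout. Many matches at number 1 can arise from these shares alone, and whether the members' matches go beyond them was not tested. Over genes, deviations from the group means did correlate between libraries of the same number, at r of 0.37 to 0.48.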

How the data were processed

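Per the labels' protocols, each library was made from 500 ng of total RNA with TruSeq reagents. The authors deposited raw read counts per Ensembl gene ID, as whole numbers without normalization. The submitters' processing notes list STAR without a version, and mm10, which is a mouse build although every ID is a medaka ID. No coordinates or sequences are therefore given. The aligner's settings, counting tool, annotation, use of strand and treatment of reads with several matches are not given in these sources, so genes that share reads, such as paralogs, could not be marked.

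Each column carries a library code found in the description of 1 sample, which set its group. The members, lists and tests were chosen with earlier results of these data known. Gene lists could not be matched to IDs and were not used. The printed IDs were set by rule, as the member with the highest wild type mean and the one with the lowest residual level. CPM are counts over the library's total count. Fold changes come from edgeR 4.0.16 in R 4.3.3 (filterByExpr with a minimum count of 10, TMM, robust quasi-likelihood fit, no covariate), tested on simulated data first. Standard errors are the size of the log2 fold change over the square root of F. The genes tested held over 99.9% of each library's counts.

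Libraries of a group differed by more than sampling noise, with a chi-square per degree of freedom of 16.9 or more. It was 54.2 and 46.2 between wild type replicate 1 and replicates 2 and 3, and 29.9 between wild type replicates 2 and 3. Over genes, deviations from the group means correlated at r of 0.37 to 0.48 between libraries of the same number. Between libraries of other numbers r was -0.27 to -0.14. Deviations from a group mean cancel within the group, so negative values here largely follow from the positive ones. From the positive values the numbers were taken to pair the libraries, but the main fit and its standard errors left this pairing out. What a number marks is in no label. The alternatives tried were scaling by RLE or upper quartile, no filter, DESeq2 1.42.0, the replicate number as a block, other limits of choice and each library left out.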

Additional observations from a re-analysis of the deposited data

How the results depend on the processing

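The number of members was 59 with TMM-scaled and 64 with upper quartile-scaled CPM. It was 37 and 116 with the wild type ratio limited to 1.3 and 2, 135 and 16 with the knockout limited to 1/3 and 1/8 of wild type, and 73 and 51 with a minimum of 1 and 10 CPM. Leaving out 1 library gave 77 to 248. Criteria over fewer libraries can be met by more genes by construction, and the 248 came without wild type replicate 1. The median residual was 16.8% and 5.78% with the limits of 1/3 and 1/8, 10.9% to 12.6% under the other scalings and limits, and 11.5% to 13.5% with 1 library left out. The median wild type level was 24.4 CPM with TMM and 25.4 CPM with upper quartile scaling. It was 19.6 and 17.0 CPM with ratios of 1.3 and 2, 18.2 and 32.4 CPM with 1/3 and 1/8, 20.9 and 33.4 CPM with minimums of 1 and 10 CPM, and 16.3 to 25.6 CPM with 1 library left out.

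With the 70 genes held fixed, the median log2 fold change ran from -3.03 to -2.87 over all settings of the fit, and all 70 stayed among the lower calls in each, which their choice makes likely. The counts over all genes, 3366 lower and 2857 higher, stayed within 1.5 times their value, at 2486 to 4473 and 1914 to 4247. The highest of these came with the replicate number as a block, where the median of the members was -2.93. The block changed no call of a member. In the edgeR quasi-likelihood test, the highest adjusted p among members was 0.032 with the block and 0.00083 without it. Members were chosen on this contrast in the same libraries, so nothing is read from their calls or p-values. Summed knockout counts as low as 14 limit the precision of residual levels in scarce members.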

Other observations

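With the table sorted by ID, 8 of the 70 members, or 11.4%, lay within 5 places of another member. Both members of a close pair enter this count, so there were fewer close pairs than members counted. A member lay as close to 5 of the 98 uneven lost genes, or 5.1%, and to 3.35% of the tested genes outside the lost sets. These shares were not tested against each other. Counting neighbours from both lost sets, 13 of 70 members (18.6%) and 18 of 98 uneven genes (18.4%) had one within 5 places, against 7.71% of the tested genes outside them. An ID's place in this order is not a genome position, and no genome of the files' build was used, so what the close IDs share was not tested.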
